A study of Homo sapiens with 10 samples.

Results

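The WNT pathway ligands, receptors and regulators were a set of 42 genes, and ZEB1 signal was followed at the 100 sites, of 52981 in the deposited count table, that lay inside these genes or within 10 kb of either end. All 42 symbols were found in the RefSeq table of GRCh38, and 36 of the genes had at least 1 site. A site belonged to a gene when its midpoint met that distance, so the choice used position and no count. ZEB1 is a zinc finger transcription factor known as a driver of the epithelial-mesenchymal transition. It was mapped by CUT&RUN, in which an antibody directs a nuclease to the places a protein occupies, in cells of a human breast cancer line, MDA in the labels and marked Er-/Pr-/Her2- there.

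The treated groups, labelled MDA_ERI, received 300 nM eribulin, a breast cancer drug that blocks microtubule growth, for 24, 48 or 72 h, and the untreated group is labelled MDA_Parental. All groups share the MDA background, the medium and the anti-ZEB1 antibody, with 2 libraries each, and IgG libraries of untreated cells were not analysed here. No time in culture is given for the untreated cells, so exposure and culture time cannot be told apart, and the labels do not say whether MDA_ERI was a derived line. The sample descriptions also name Tn5, which is foreign to CUT&RUN. The files hold ZEB1 occupancy only, so neither the receptor status nor the expression of any WNT gene was checked.

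WNT proteins are secreted lipid-modified ligands that bind Frizzled (FZD) receptors, and in the canonical branch also the co-receptors LRP5 and LRP6. Without a ligand, a destruction complex built on AXIN1, AXIN2 and APC marks beta-catenin for degradation; with a ligand, beta-catenin accumulates and works in the nucleus with the TCF and LEF factors. DKK1 blocks the co-receptors, SFRP1 binds the ligands, and the membrane ubiquitin ligases RNF43 and ZNRF3 remove Frizzled from the cell surface. In breast epithelium the pathway is known for its part in stem cell maintenance and in the epithelial-mesenchymal transition.

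Promoters that lay under ZEB1 sites are shown first, because the text below turns on whether signal moved at these starts or elsewhere in the genes. RefSeq sequences (GRCh38.p14, from 250 bases before to 50 bases after a listed start) were held for 29 of the 42 genes, as 37 windows, and 14 windows in 12 genes overlapped a site. The windows of AXIN1, FZD5 and RNF43 are given because they hold a ZEB1 E-box form under a site, that of DKK1 for a TCF and LEF motif, and those of FZD8 and TCF7L2 because signal at these starts passed the test with opposite signs. Capitals mark every match, on either strand, of CAGGTG or CAGGTA (E-box forms bound by ZEB1), TGANTCA (AP-1) and CTTTGAT or CTTTGAA (TCF and LEF).
AXIN1, chr16:352674-352973, minus strand: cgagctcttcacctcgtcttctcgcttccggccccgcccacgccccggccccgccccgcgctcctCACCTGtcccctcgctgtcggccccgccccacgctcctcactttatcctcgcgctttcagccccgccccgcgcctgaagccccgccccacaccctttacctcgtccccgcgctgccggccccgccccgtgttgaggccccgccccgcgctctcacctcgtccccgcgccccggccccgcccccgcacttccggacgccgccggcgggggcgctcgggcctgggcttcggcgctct
FZD5, chr2:207769857-207770156, minus strand: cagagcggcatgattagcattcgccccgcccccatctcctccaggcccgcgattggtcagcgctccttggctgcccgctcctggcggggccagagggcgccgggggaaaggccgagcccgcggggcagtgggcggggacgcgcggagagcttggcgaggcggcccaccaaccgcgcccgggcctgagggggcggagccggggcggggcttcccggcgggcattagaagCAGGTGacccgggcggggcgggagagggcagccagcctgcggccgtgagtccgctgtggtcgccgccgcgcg
RNF43, chr17:58417485-58417784, minus strand: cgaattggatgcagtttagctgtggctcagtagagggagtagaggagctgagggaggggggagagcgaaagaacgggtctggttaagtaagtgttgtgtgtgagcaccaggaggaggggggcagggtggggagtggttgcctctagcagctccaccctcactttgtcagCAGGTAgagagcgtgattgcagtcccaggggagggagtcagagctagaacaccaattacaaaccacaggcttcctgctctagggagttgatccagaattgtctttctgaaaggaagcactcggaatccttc
RNF43, chr17:58402672-58402971, minus strand: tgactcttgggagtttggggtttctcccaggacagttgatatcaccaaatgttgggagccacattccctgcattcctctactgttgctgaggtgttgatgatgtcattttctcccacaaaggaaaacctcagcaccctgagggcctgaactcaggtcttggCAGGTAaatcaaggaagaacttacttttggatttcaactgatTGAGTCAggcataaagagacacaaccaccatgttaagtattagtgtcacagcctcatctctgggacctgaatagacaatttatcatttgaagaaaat
DKK1, chr10:52314031-52314330, plus strand: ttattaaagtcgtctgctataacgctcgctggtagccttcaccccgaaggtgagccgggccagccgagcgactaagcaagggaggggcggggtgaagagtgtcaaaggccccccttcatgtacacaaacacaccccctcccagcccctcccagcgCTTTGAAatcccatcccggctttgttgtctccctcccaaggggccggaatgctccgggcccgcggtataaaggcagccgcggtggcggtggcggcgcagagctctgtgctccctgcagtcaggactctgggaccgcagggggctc
FZD8, chr10:35642247-35642546, minus strand: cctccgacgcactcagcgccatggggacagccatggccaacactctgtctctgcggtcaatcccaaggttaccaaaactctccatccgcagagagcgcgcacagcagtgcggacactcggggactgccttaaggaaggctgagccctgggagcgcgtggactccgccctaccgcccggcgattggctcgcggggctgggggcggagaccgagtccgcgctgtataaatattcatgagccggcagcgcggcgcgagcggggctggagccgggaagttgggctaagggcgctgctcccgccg
TCF7L2, chr10:112949997-112950296, plus strand: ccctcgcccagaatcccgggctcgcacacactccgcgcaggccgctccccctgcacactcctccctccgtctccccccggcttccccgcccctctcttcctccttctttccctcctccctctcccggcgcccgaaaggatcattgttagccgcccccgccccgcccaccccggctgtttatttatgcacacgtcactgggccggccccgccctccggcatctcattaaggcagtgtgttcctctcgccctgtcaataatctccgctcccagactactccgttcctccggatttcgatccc

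Capitals in the AXIN1 window read CACCTG, which is CAGGTG on the other strand. Among the 14 windows under a site, 2 held CAGGTG, 2 held CAGGTA, 1 held TGANTCA, 1 held CTTTGAA and 0 held CTTTGAT. Over all 35116 RefSeq promoter windows of this length, these motifs were found in 20.6% (CAGGTG), 9.8% (CAGGTA), 7.7% (TGANTCA), 4.4% (CTTTGAA) and 2.6% (CTTTGAT). None of these motifs contains another. A match describes letters in a window and was not tested as a binding site.

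Library totals over all sites ran from 1130706 at 72 h to 3561455 in untreated cells. Within each condition the libraries differed by less than sampling noise, with a chi-square per degree of freedom between 0.830 and 0.951 over sites with 20 or more counts. A pair was thus taken as 1 sample (n = 1 per condition), and nothing says that the libraries came from separate cultures. Values are CPM, counts scaled to library size with TMM factors, 95% intervals of log2 changes are exact binomial intervals that cover counting error only, and adjusted p-values compare these libraries and not the conditions. The 3 exposure times share the untreated libraries, and the comparison of 72 h with 24 h reuses treated ones.

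A site was called higher or lower when edgeR's quasi-likelihood test gave a Benjamini-Hochberg adjusted p below 0.05 over all 46436 tested sites and the fitted change was at least 2-fold. That scale sets the typical site to no change: the median log2 change over all tested sites was 0.02 at 24 h, -0.01 at 48 h and 0.00 at 72 h. Scaled instead to the background level recovered from the peak lists, the same median was -0.91, -1.42 and -1.496, and -0.58 for 72 h against 24 h. Directions below are relative to the typical site. On the background scale 7 called increases turned negative, namely those at 48 h of WNT7A, of TCF7, of both FZD8 sites and of the LRP5 site at chr11:68447237-68447336, and those at 72 h of that LRP5 site and of 1 WNT3 site. No called decrease turned positive on any scale tried.

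ZEB1 sites were unevenly spread over the pathway. WNT5A, WNT16, FZD9, FZD10, SFRP1 and LEF1 had none, while WNT7B had 9, LRP5 and DKK3 had 8 each, and RNF43, TCF7L1 and TCF7L2 had 5 each. Per length of gene with its flanks, WNT10B was densest with 15.15 sites per 100 kb, followed by DKK3 with 11.99 and WNT7B with 11.72. All 4 WNT10B sites lay in its flanks and 0 inside the gene. Those at chr12:48956215 and chr12:48957296 lay 936 and 75 bp from a listed start of ARF3. Of the 100 sites, 61 lay inside a gene, 39 lay in a flank, 2 counted for both WNT1 and WNT10B, and 18 lay within 1 kb of a listed start of their gene. Their median width was 281 bp, against 229 bp for all sites, and the median count density of the tested ones was 51.94 CPM per kb, against 52.75 CPM per kb for all tested sites.

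The deposited peak lists, 1 per condition, marked 87 of the 100 sites in untreated cells, 61 at 24 h, 45 at 48 h and 39 at 72 h. A peak in all 4 lists was found at 28 sites, and in the untreated list alone at 27. A single treated list and no other marked 6 sites (24 h), 6 (48 h) and 1 (72 h). Of the remaining combinations, the most frequent was a peak in the untreated and 24 h lists only, with 15 sites. Library totals over all sites also fell with time. Sequencing depth is not given, and its part in the number of peaks was not tested. Peak shares over all 52981 sites are not given here. The fall in peaks thus describes the pathway sites only, and a difference from other sites was not tested. The summed level of the 100 sites was 2040.5 CPM in untreated cells, 1515.4 CPM at 24 h, 1813.8 CPM at 48 h and 1900.7 CPM at 72 h, on the scale that sets the typical site to no change.

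After 24 h of eribulin ZEB1 signal was lower than in untreated cells at 17 of the 92 tested sites and higher at 8. That is 18.5% lower and 8.7% higher, read against 13.5% lower and 14.8% higher among all tested sites. Without the sites within 5 Mb of a chromosome end, at WNT7B and AXIN1, it was 13.8% lower and 10.0% higher. The median log2 change was -0.42 at the pathway sites and 0.02 over all tested sites. After 48 h 7 sites were lower and 10 higher, with 7.55% and 10.5% of all tested sites called in those directions. After 72 h the counts were again 7 lower and 10 higher, with 8.55% and 12.2% among all tested sites. The shares at 48 and 72 h were thus close to the background, with medians of -0.11 and -0.01 on the log2 scale.

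Set against the 24 h libraries, the 72 h libraries had more signal at 23 of the 92 sites and less at 8. These are 25.0% and 8.7% of the sites, while 12.1% and 9.26% of all tested sites were called higher and lower. The median log2 difference was 0.36 at the pathway sites and -0.01 over all tested sites. Without the second 72 h library the number of sites lower at 72 h than at 24 h was 5 in place of 8.

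Other call rules gave other counts. With the adjusted p alone and no fold limit, 36 sites were lower and 13 higher at 24 h (26.8% and 28.0% of all tested sites), 22 and 14 at 48 h (16.9% and 16.8%), 20 and 17 at 72 h (17.0% and 18.9%), and 11 and 28 for 72 h against 24 h (16.4% and 19.4%). With a coefficient of variation of 0.2 between cultures assumed on top of the counting noise, 13 were lower and 6 higher at 24 h (7.40% and 8.67% of all tested sites), 0 and 5 at 48 h (2.22% and 5.87%), 0 and 6 at 72 h (2.43% and 6.31%), and 2 and 5 for 72 h against 24 h (1.02% and 3.51%). On the background scale 55 were lower and 1 higher at 24 h (45.7% and 3.36% of all tested sites), 74 and 4 at 48 h (72.7% and 3.14%), 69 and 2 at 72 h (73.2% and 1.63%), and 16 and 7 for 72 h against 24 h (29.3% and 4.12%). More lower than higher pathway sites at 24 h was common to all of these rules, and more higher than lower ones at 72 h than at 24 h to all but the background scale.

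**Figure D1:**
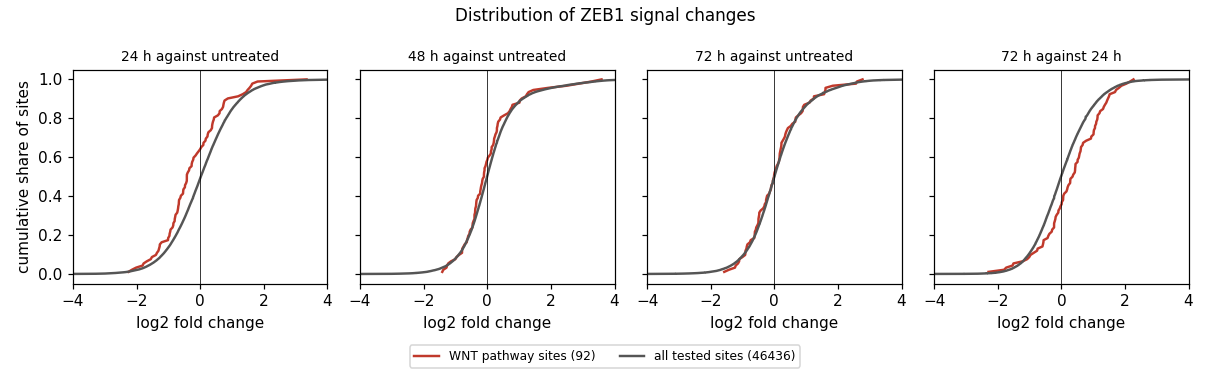
Cumulative share of sites (vertical axis) by log2 fold change (horizontal axis) for the 92 tested WNT pathway sites and all 46436 tested sites, 1 panel per comparison. The pathway curve lies to the left of the other at 24 h (medians -0.42 and 0.02), close to it at 48 and 72 h, and to its right for 72 h against 24 h (medians 0.36 and -0.01).

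Taking the 3 exposure times together, 53 of the 92 sites (57.6%) were never called against untreated cells, and this share was 58.1% among all tested sites. Lower at 24 h alone was the most frequent pattern of the others, with 12 sites. Next came 7 sites that were higher at 48 and 72 h and not called at 24 h. Calls in 1 direction at all 3 times were made at 3 sites, 2 lower (WNT10B and ZNRF3) and 1 higher (TCF7). Shares of these time patterns over all tested sites are not given here, so the patterns describe the pathway sites only. LRP5 and WNT7B, with 7 and 9 of the 92 tested sites, together held 12 of the 39 sites called at any time. No site was called against untreated cells at 15 tested genes: WNT1, WNT4, WNT6, WNT10A, WNT11, FZD1, FZD2, FZD3, FZD4, FZD5, FZD6, LRP6, DKK3, APC and TCF7L1.

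**Figure D2:**
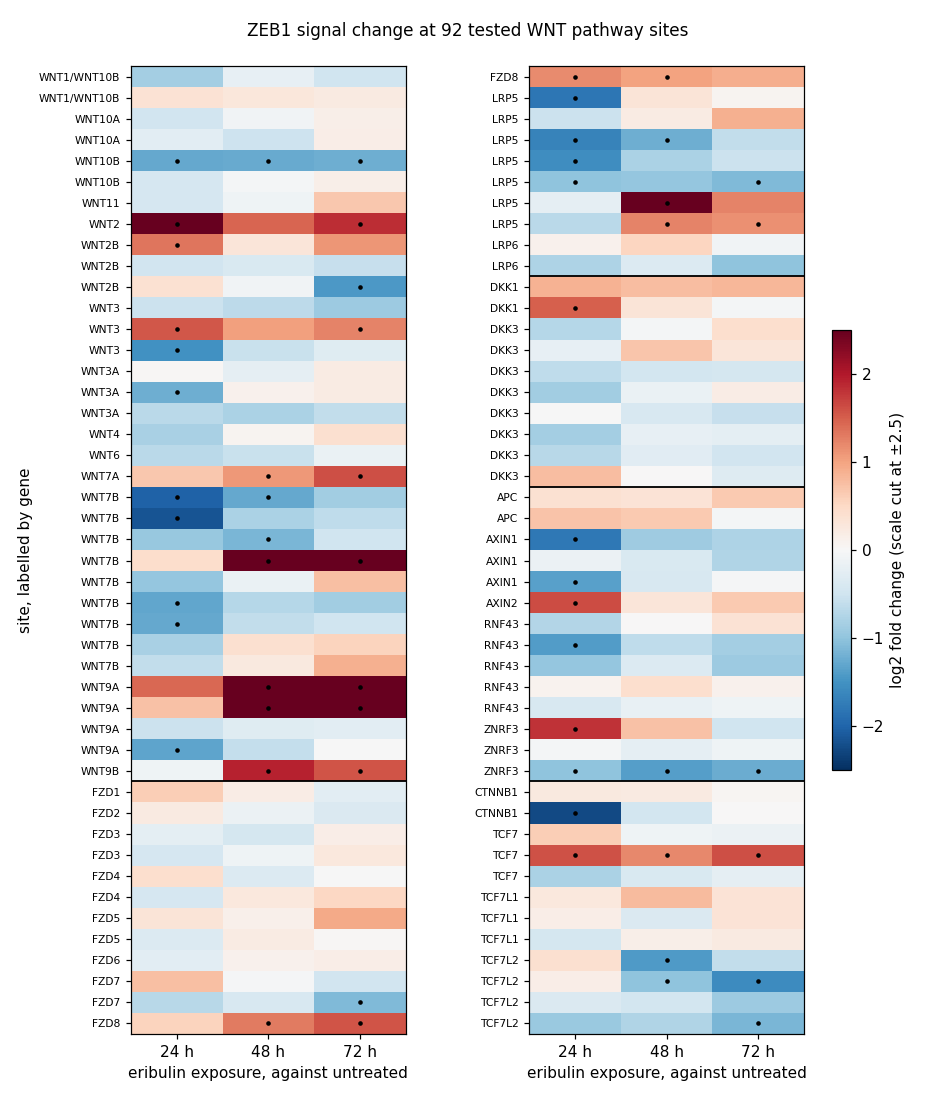
Log2 change of ZEB1 signal against untreated cells at 24, 48 and 72 h for each of the 92 tested sites, labelled by gene and grouped by role, from ligands and receptors in the left column to receptors, secreted inhibitors, turnover genes and beta-catenin with its partners in the right one. Colour runs from blue (lower) through white (0) to red (higher), cut at 2.5, and dots mark called sites: 25 at 24 h, 17 at 48 h and 17 at 72 h.

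Ligands held 34 tested sites, of which 8 were lower and 3 higher at 24 h, 3 lower and 5 higher at 48 h, and 2 lower and 7 higher at 72 h. These are 23.5% and 8.8% of the ligand sites at 24 h (13.5% and 14.8% of all tested sites), 8.8% and 14.7% at 48 h (7.55% and 10.5%) and 5.9% and 20.6% at 72 h (8.55% and 12.2%). Their median log2 change was -0.53 at 24 h and 0.16 at 72 h. WNT7B, a ligand of canonical signalling known from kidney, lung and bone, held 4 of the 8 lower calls at 24 h, 2 of the 3 at 48 h and none at 72 h. At its strongest site, chr22:45969067-45969582 inside the gene, the libraries had 83.7 and 88.7 CPM in untreated cells, 35.4 and 35.6 CPM at 24 h, 53.3 and 58.9 CPM at 48 h, and 57.1 and 64.8 CPM at 72 h. All treated libraries lay below both untreated ones and the 24 h pair was lowest. The log2 change was -1.28 at 24 h (95% interval -1.56 to -1.004, adjusted p = 1.37e-21), -0.62 at 48 h and -0.50 at 72 h, and only the 24 h change reached 2-fold.

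The WNT7B site at chr22:45916688-45917025, 3509 bp outside the gene, had 30.7 and 30.3 CPM in untreated cells, 6.67 and 7.004 CPM at 24 h, 19.3 and 15.9 CPM at 48 h, and 16.4 and 23.1 CPM at 72 h. Its 24 h log2 change of -2.15 (interval -2.81 to -1.57, adjusted p = 8.48e-16) was the largest decrease among the pathway sites above the median abundance. At 72 h it was higher than at 24 h, with a log2 difference of 1.52 (interval 0.79 to 2.28, adjusted p = 0.000122). At a pair of other WNT7B sites the 72 h libraries lay above the untreated ones. At chr22:45934612-45935161, inside the gene, the libraries had 33.6 and 32.0 CPM in untreated cells, 18.0 and 15.6 CPM at 24 h, 27.8 and 31.0 CPM at 48 h, and 51.1 and 60.2 CPM at 72 h. The 72 h pair was the highest there, with a log2 difference from 24 h of 1.72 (interval 1.27 to 2.18, adjusted p = 8.26e-14). At chr22:45977686-45978298, 830 bp outside the gene, values were 13.9 and 12.5 CPM in untreated cells, 9.24 and 8.08 CPM at 24 h, 20.1 and 11.3 CPM at 48 h, and 21.6 and 27.8 CPM at 72 h, a log2 difference of 1.50 for 72 h against 24 h (interval 0.86 to 2.17, adjusted p = 1.79e-05).

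WNT9A, whose product acts in limb joint development, had a strong site inside the gene, 1259 bp from its listed start, at chr1:227946185-227947161. It held 66.9 and 73.5 CPM in untreated cells, 28.2 and 28.02 CPM at 24 h, 48.7 and 43.8 CPM at 48 h, and 71.0 and 68.5 CPM at 72 h. Signal was lower at 24 h by a log2 change of -1.31 (interval -1.63 to -1.01, adjusted p = 1.13e-18), and the 72 h libraries overlapped the untreated ones. WNT3, a ligand needed for the primitive streak, showed a similar time course at chr17:46795369-46795790: 32.7 and 32.3 CPM in untreated cells, 9.24 and 13.5 CPM at 24 h, 23.2 and 21.1 CPM at 48 h, and 26.0 and 26.8 CPM at 72 h. The 24 h log2 change was -1.52 (interval -2.03 to -1.05, adjusted p = 3.01e-11), and 72 h exceeded 24 h by 1.22 (interval 0.63 to 1.83, adjusted p = 0.00019). Its strongest site, chr17:46764775-46765062, had 40.5 and 38.3 CPM in untreated cells, 29.2 and 25.3 CPM at 24 h, 26.3 and 24.2 CPM at 48 h, and 23.4 and 18.5 CPM at 72 h. Treated libraries all lay below untreated ones at this site, and no change reached 2-fold (log2 change at 72 h -0.91, adjusted p = 0.000155). In the RefSeq table LRRC37A2 spans the same 3 WNT3 sites and the WNT9B site, so that signal belongs to either gene by position.

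A site counted for WNT10B, a ligand known in mammary and bone development, was lower at all 3 times. It lay 8789 bp from WNT10B and inside ARF3, at chr12:48956215-48956886, 936 bp from an end of that gene. The libraries had 66.0 and 78.2 CPM in untreated cells, 27.7 and 31.8 CPM at 24 h, 25.5 and 34.0 CPM at 48 h, and 26.8 and 35.2 CPM at 72 h. Log2 changes were -1.27 at 24 h (adjusted p = 9.16e-18), -1.27 at 48 h (adjusted p = 8.64e-14) and -1.21 at 72 h (adjusted p = 1.63e-11), and 72 h differed from 24 h by 0.06 (interval -0.40 to 0.50). WNT7A, a ligand of limb and female tract patterning, went the other way at its only site, chr3:13850279-13850562 inside the gene. It had 10.1 and 11.9 CPM in untreated cells, 13.3 and 22.1 CPM at 24 h, 17.0 and 29.5 CPM at 48 h, and 35.5 and 31.5 CPM at 72 h. Signal was higher at 48 h (log2 change 1.08, adjusted p = 0.000173; on the background scale -0.33) and at 72 h (1.61, interval 1.13 to 2.104, adjusted p = 1.27e-09; on the background scale 0.11). Without the second 48 h library the 48 h change was 0.65 with an adjusted p of 0.203.

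Several ligand sites had nearly no signal in untreated cells and are given as pooled values, picked after their values were seen. Inside WNT7B, chr22:45924644-45925059 had 2.31 CPM in untreated cells, 3.15 CPM at 24 h, 28.6 CPM at 48 h and 14.3 CPM at 72 h, and was called higher at 48 and 72 h. Inside WNT9A, chr1:227921493-227921572 and chr1:227921760-227921839 had 7.26 and 9.55 CPM at 48 h, against 0.925 CPM each in untreated cells. WNT9B had 3.39 CPM in untreated cells, 3.15 CPM at 24 h, 12.98 CPM at 48 h and 10.3 CPM at 72 h at its only site. WNT2, a ligand of lung development, had 11.6 CPM at 24 h, against 1.08 CPM in untreated cells, at a site 5867 bp past its end, the largest 24 h increase of the 92 sites (log2 change 3.34, interval 2.26 to 4.82). The other higher calls of ligands at 24 h were at WNT2B near its start and at WNT3, and WNT3A had a lower one.

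Receptors held 22 tested sites: 4 lower and 1 higher at 24 h, 1 lower and 4 higher at 48 h, and 2 lower and 2 higher at 72 h. The lower and higher shares were 18.2% and 4.5% at 24 h, 4.5% and 18.2% at 48 h and 9.1% each at 72 h, to be read against the shares of all tested sites given for the ligands. All 4 receptor sites lower at 24 h belonged to LRP5, the co-receptor also known for its control of bone mass. Its site with the most signal, chr11:68302664-68303080, lies inside the gene, 4460 bp from an end of it. There the libraries had 69.5 and 67.3 CPM in untreated cells, 19.5 and 19.4 CPM at 24 h, 85.0 and 86.8 CPM at 48 h, and 71.0 and 73.1 CPM at 72 h. Both 24 h libraries lay far below the rest, and the 48 h libraries were highest. The log2 change was -1.81 at 24 h (interval -2.19 to -1.46, adjusted p = 3.81e-27), 0.33 at 48 h and 0.07 at 72 h, and 72 h exceeded 24 h by 1.88 (interval 1.48 to 2.31, adjusted p = 2.32e-20).

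Along LRP5 the later time course differed from site to site. At chr11:68354182-68354748 the libraries had 84.6 and 90.7 CPM in untreated cells, 29.2 and 30.2 CPM at 24 h, 51.8 and 49.1 CPM at 48 h, and 59.7 and 61.1 CPM at 72 h. This site was lower at 24 h (log2 change -1.56, adjusted p = 7.77e-28) and its 72 h libraries remained below both untreated ones. At chr11:68316859-68317136 values were 30.4 and 28.7 CPM in untreated cells, 8.21 and 10.2 CPM at 24 h, 10.8 and 14.3 CPM at 48 h, and 16.4 and 22.2 CPM at 72 h, lower at 24 h (log2 change -1.68, adjusted p = 1.13e-11) and at 48 h (-1.23, adjusted p = 6.58e-06). The site at chr11:68380392-68380791 had 37.7 and 35.6 CPM in untreated cells, 15.9 and 20.5 CPM at 24 h, 16.2 and 21.1 CPM at 48 h, and 12.98 and 21.3 CPM at 72 h. It stayed low, with log2 changes of -1.01 at 24 h and -1.11 at 72 h (adjusted p = 3.14e-07 and 1.44e-05). Without the first 24 h library the 24 h change was -0.83, and without the first 72 h library the 72 h change was -0.78, both below 2-fold.

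A further LRP5 site, chr11:68314934-68315633, lies 2692 bp from a listed start. It had 45.2 and 45.2 CPM in untreated cells, 26.2 and 36.1 CPM at 24 h, 51.8 and 52.1 CPM at 48 h, and 90.0 and 77.7 CPM at 72 h. The 72 h libraries were above all others, and 72 h exceeded 24 h by 1.44 on the log2 scale (interval 1.10 to 1.78, adjusted p = 5.68e-16), while the change against untreated cells stayed under 2-fold (0.90). The remaining tested LRP5 sites, chr11:68426606-68426699 and chr11:68447237-68447336, lay far into the gene with at most 12.1 CPM in any library. Both were called higher at 48 h, and the second also at 72 h (log2 change 1.14, adjusted p = 0.0179).

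**Figure D3:**
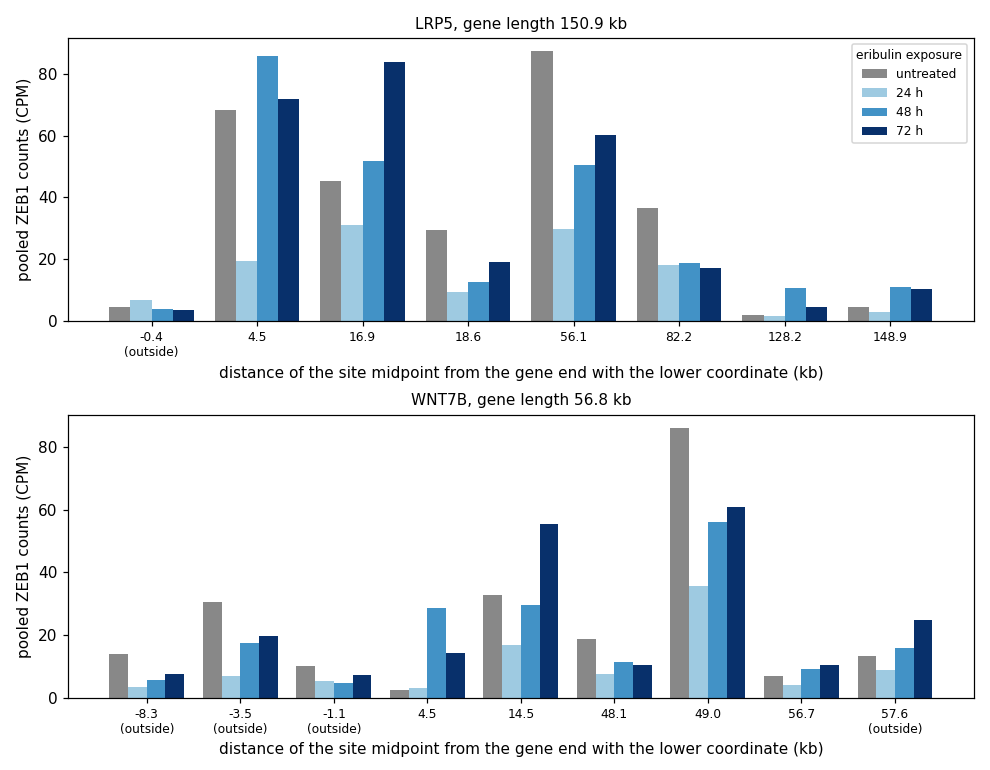
Pooled ZEB1 signal (CPM, bars from 0) at each site of LRP5 (8 sites, 1 of them untested) and WNT7B (9 sites), ordered by distance in kb from the gene end with the lower coordinate; bar colours run from untreated through 24 and 48 h to 72 h. The 24 h bar is lower than the untreated one at 7 of the 8 LRP5 sites and 8 of the 9 WNT7B sites, and the bars at 72 h exceed the untreated ones at some sites and not at others.

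The Frizzled genes, which encode the receptors themselves, held few called sites. The FZD5 start site, chr2:207769682-207770273, whose promoter is printed above, had 36.2 and 39.2 CPM in untreated cells, 31.8 and 27.5 CPM at 24 h, 43.3 and 43.8 CPM at 48 h, and 38.1 and 38.9 CPM at 72 h. The 24 h libraries were lowest, and no change was called (log2 change -0.34 at 24 h, interval -0.68 to -0.01, adjusted p = 0.0621). FZD8 differed in that its start site was called. There, at chr10:35642107-35642417, the libraries had 12.7 and 10.6 CPM in untreated cells, 29.8 and 23.7 CPM at 24 h, 23.2 and 24.2 CPM at 48 h, and 24.2 and 19.4 CPM at 72 h. Every treated library lay above both untreated ones. Signal was higher at 24 h (log2 change 1.19, interval 0.75 to 1.64, adjusted p = 2.72e-07; on the background scale 0.26) and at 48 h (1.01, adjusted p = 0.000397; on the background scale -0.41). Without the second untreated library the 48 h change was 0.89.

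FZD7, a receptor studied in basal-like breast cancer, had a site 60 bp outside the gene, chr2:202033468-202034122. Its libraries had 21.1 and 15.8 CPM in untreated cells, 30.8 and 31.8 CPM at 24 h, 14.7 and 21.9 CPM at 48 h, and 13.8 and 12.96 CPM at 72 h. The 24 h pair was highest, and 72 h was lower than 24 h by a log2 difference of -1.22 (interval -1.85 to -0.63, adjusted p = 8.35e-05). A second FZD7 site was lower at 72 h, at 4.92 CPM, against 10.6 CPM in untreated cells. At LRP6, FZD1, FZD2, FZD3, FZD4 and FZD6 no tested site was called against untreated cells. FZD1, with 23.7 and 21.1 CPM in untreated cells, 39.5 and 29.1 CPM at 24 h, 23.9 and 27.2 CPM at 48 h, and 25.1 and 12.03 CPM at 72 h, had its highest pair at 24 h, a log2 change of 0.61 that was not called.

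Of the secreted inhibitors, DKK1 and DKK3 held 10 tested sites, of which 1 was called against untreated cells at 24 h (higher) and 0 at 48 or 72 h. These are 0.0% lower and 10.0% higher at 24 h and 0.0% each later, beside the shares of all tested sites given for the ligands. On 10 sites, 0 or 1 call per direction is near those shares and does not set the inhibitors apart. With the adjusted p alone and no fold limit, edgeR passed 4 lower and 3 higher of these 10 at 24 h (26.8% and 28.0% of all tested sites). At 48 h 0 lower and 2 higher passed (16.9% and 16.8%), and at 72 h 0 lower and 1 higher (17.0% and 18.9%). DKK1, a blocker of LRP5 and LRP6, had 18.5 and 19.5 CPM at its start site, chr10:52313887-52314648, in untreated cells, 32.3 and 37.2 CPM at 24 h, 37.9 and 27.2 CPM at 48 h, and 38.9 and 28.7 CPM at 72 h. All treated libraries lay above both untreated ones, and the log2 changes of 0.87, 0.77 and 0.84 passed the adjusted p (8.03e-06, 0.00115 and 0.000636) but not 2-fold. Its second site, chr10:52319030-52319397, 1556 bp past the gene, had 17.4 and 20.8 CPM in untreated cells, 49.3 and 57.6 CPM at 24 h, 24.7 and 22.7 CPM at 48 h, and 18.2 and 18.5 CPM at 72 h. Here the 24 h pair stood above all other libraries. The log2 change was 1.49 at 24 h (interval 1.16 to 1.83, adjusted p = 5.63e-18) and -0.05 at 72 h, and 72 h was lower than 24 h by a log2 difference of -1.54 (adjusted p = 1.68e-10).

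DKK3, a relative of DKK1 whose product does not block the co-receptors in the same way, had 8 sites inside the gene and no call against untreated cells. Its strongest site, chr11:11977304-11977578, had 22.3 and 22.8 CPM in untreated cells, 20.01 and 18.9 CPM at 24 h, 34.8 and 38.5 CPM at 48 h, and 30.3 and 25.0 CPM at 72 h. The 48 h libraries were highest, with a log2 change of 0.70 (interval 0.32 to 1.08, adjusted p = 0.00159).

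Receptor turnover and destruction complex genes held 14 tested sites: 4 lower and 2 higher at 24 h, 1 lower and 0 higher at 48 h, and the same counts at 72 h. The lower and higher shares, 28.6% and 14.3% at 24 h and 7.1% and 0.0% later, stand beside the shares of all tested sites given for the ligands. With the adjusted p alone, 7 of the 14 were lower and 2 higher at 24 h (26.8% and 28.0% of all tested sites). Under that rule 4 were lower and 0 higher at 48 h (16.9% and 16.8%), and 5 lower and 1 higher at 72 h (17.0% and 18.9%). AXIN1, the scaffold of the destruction complex, split by position. At its start, chr16:352689-353229, the libraries had 51.3 and 58.7 CPM in untreated cells, 55.4 and 43.1 CPM at 24 h, 37.9 and 46.1 CPM at 48 h, and 23.4 and 42.6 CPM at 72 h. The 24 h libraries overlapped the untreated ones (log2 change -0.15, interval -0.41 to 0.11, adjusted p = 0.337), and the 72 h libraries lay below them without reaching 2-fold (-0.74, adjusted p = 0.000161). Inside the gene, chr16:327243-327873 had 60.2 and 65.0 CPM in untreated cells, 18.0 and 18.3 CPM at 24 h, 37.9 and 29.5 CPM at 48 h, and 37.2 and 36.1 CPM at 72 h. All treated libraries lay below the untreated ones there, and the 24 h log2 change was -1.78 (interval -2.17 to -1.41, adjusted p = 5.36e-24).

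The third AXIN1 site, chr16:362077-362413, 9522 bp upstream and 4724 bp from an end of MRPL28, had 23.2 and 24.4 CPM in untreated cells, 8.72 and 9.70 CPM at 24 h, 17.0 and 18.9 CPM at 48 h, and 20.8 and 25.9 CPM at 72 h. It was lower at 24 h (log2 change -1.36, adjusted p = 2.12e-07), and at 72 h its libraries straddled the untreated ones.

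RNF43, the ligase that removes Frizzled, had no call at the sites over its printed starts. The start site chr17:58417463-58417859 had 54.2 and 49.8 CPM in untreated cells, 40.5 and 38.8 CPM at 24 h, 45.6 and 46.1 CPM at 48 h, and 41.5 and 55.5 CPM at 72 h, with log2 changes from -0.39 to -0.11 and no call. A further site, chr17:58402122-58402330, lay 495 bp from the second printed start. It had a pooled 33.0 CPM in untreated cells, 16.8 CPM at 24 h, 26.0 CPM at 48 h and 17.4 CPM at 72 h. Its log2 changes of -0.97 at 24 h and -0.92 at 72 h passed edgeR's adjusted p (3.22e-06 and 0.000537) but not 2-fold. The lower call at RNF43 was inside the gene, at chr17:58391573-58391805, which had 22.3 and 28.03 CPM in untreated cells, 9.24 and 9.70 CPM at 24 h, 20.1 and 12.1 CPM at 48 h, and 19.0 and 8.33 CPM at 72 h. Its 24 h log2 change was -1.39 (interval -1.96 to -0.87, adjusted p = 6.3e-08), and the libraries at 72 h differed widely from each other. APC, which holds beta-catenin in the destruction complex, had 21.4 and 27.7 CPM at its start site, chr5:112707367-112708029, in untreated cells, 31.8 and 31.8 CPM at 24 h, 30.9 and 31.0 CPM at 48 h, and 35.5 and 41.6 CPM at 72 h. Treated libraries lay above untreated ones, but the log2 changes of 0.38, 0.34 and 0.66 were not called.

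Weaker turnover sites are given pooled and were picked after their values were seen. ZNRF3, the ligase related to RNF43, had 7.56 CPM in untreated cells, 26.5 CPM at 24 h, 12.6 CPM at 48 h and 5.37 CPM at 72 h at a site 185 bp outside the gene, higher at 24 h (log2 change 1.80) and lower again at 72 h than at 24 h (-2.29). Inside ZNRF3, chr22:29044734-29045049 had 18.0 CPM in untreated cells, 8.94 CPM at 24 h, 6.87 CPM at 48 h and 7.60 CPM at 72 h and was lower at all 3 times. AXIN2, a textbook target of beta-catenin, had 9.72 CPM at 24 h, against 3.08 CPM in untreated cells, at its only site, 30 bp inside a gene end, and was called higher at 24 h alone.

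Beta-catenin and its DNA-binding partners held 12 tested sites, with 1 lower and 1 higher at 24 h, 2 lower and 1 higher at 48 h, and 2 lower and 1 higher at 72 h. With so few sites these are 8.3% each at 24 h and 16.7% and 8.3% at both later times, beside the shares of all tested sites given for the ligands. TCF7L2, the main TCF factor of gut epithelium, held all lower calls at 48 and 72 h. The site with the highest mean level of the set, chr10:113073592-113074165 inside TCF7L2, had 88.3 and 83.1 CPM in untreated cells, 68.8 and 65.7 CPM at 24 h, 55.6 and 68.7 CPM at 48 h, and 45.9 and 45.3 CPM at 72 h. Treated libraries all lay below the untreated ones and the 72 h pair was lowest, with a log2 change of -0.91 (interval -1.23 to -0.61, adjusted p = 6.32e-09), short of 2-fold. At chr10:113087233-113087656 the libraries had 61.4 and 59.0 CPM in untreated cells, 28.7 and 34.5 CPM at 24 h, 33.2 and 38.5 CPM at 48 h, and 26.8 and 27.8 CPM at 72 h. Signal was lower at 72 h by a log2 change of -1.14 (interval -1.56 to -0.75, adjusted p = 5.57e-09), and the 24 h change of -0.93 was just under the 2-fold limit.

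The TCF7L2 start site, chr10:112949964-112950326, had a pooled 12.3 CPM in untreated cells, 16.3 CPM at 24 h, 4.58 CPM at 48 h and 8.05 CPM at 72 h, lower at 48 h (log2 change -1.42, interval -2.44 to -0.55, adjusted p = 0.0018). TCF7, the factor first known from T cells, had 5.24 CPM in untreated cells, 16.0 CPM at 24 h, 12.2 CPM at 48 h and 16.1 CPM at 72 h at chr5:134114482-134114746, 999 bp from its listed start and 74 bp from an end of VDAC1. It was higher at all 3 times, although at 48 h the background scale turned the change to -0.20. CTNNB1, the gene of beta-catenin, had 12.5 CPM in untreated cells, 14.7 CPM at 24 h, 14.5 CPM at 48 h and 12.97 CPM at 72 h at its start site, with no call. A second CTNNB1 site, 3894 bp past the gene and 2261 bp from an end of ULK4, had 11.6 CPM in untreated cells, 2.37 CPM at 24 h, 8.40 CPM at 48 h and 11.6 CPM at 72 h and was lower at 24 h alone (log2 change -2.26, interval -3.47 to -1.29, adjusted p = 3.02e-07). These weaker sites were also picked after their values were seen.

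**Figure D4:**
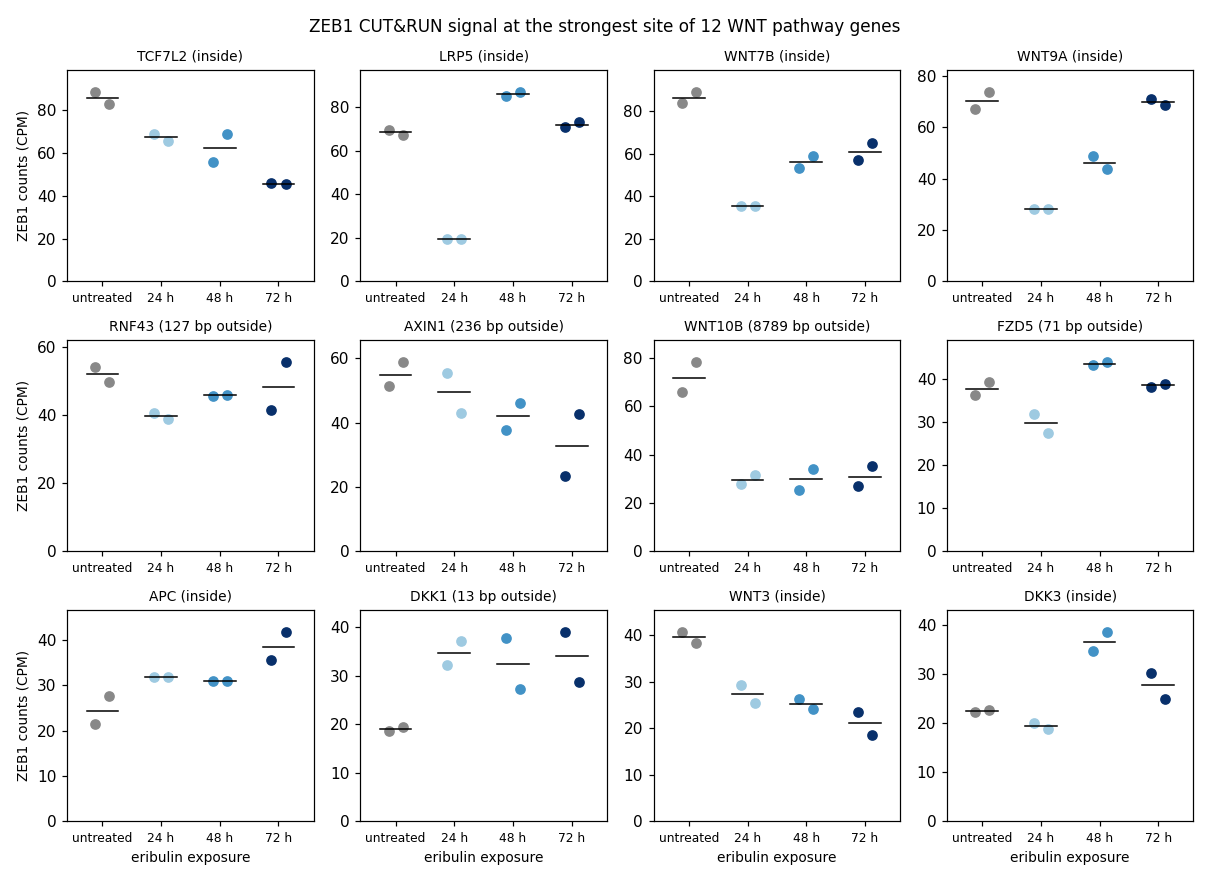
ZEB1 signal (CPM, axes from 0) at the strongest site of the 12 genes whose top sites had the highest mean level; points are the 2 libraries of each condition, lines their pooled value, and panel titles say whether the site lies inside or outside the gene. The LRP5, WNT7B and WNT9A panels dip at 24 h, TCF7L2 and WNT3 are lowest at 72 h, WNT10B is low at all 3 times, and at DKK1 every treated library lies above the untreated ones.

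The top sites of the other 23 tested genes were weaker. Their libraries had from 0.989 CPM (WNT2) to 37.6 CPM (WNT3A) in untreated cells, 2.16 CPM (WNT9B) to 39.5 CPM (FZD1) at 24 h, 1.54 CPM (AXIN2) to 29.5 CPM (WNT7A and LRP6) at 48 h, and 1.85 CPM (WNT2) to 37.9 CPM (WNT10A) at 72 h. The 8 untested sites fell below the count filter; they lay at WNT3A, WNT5B, FZD1, LRP5, LRP6, TCF7L1 (2 sites) and TCF7L2, and for WNT5B it was the only site.

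Sites were also split by their distance to a start. Of 17 tested sites within 1 kb of a listed start of their own gene, 0 were lower and 3 higher at 24 h (with the adjusted p alone in edgeR, 2 and 5), while 11 were lower and 3 higher of the 43 farther away. The 3 higher ones near a start were at WNT2B, FZD8 and TCF7. Across all tested sites within 1 kb of any listed start, 7.2% were lower and 10.4% higher at 24 h, and farther away 15.5% were lower and 16.2% higher. With 7.2% as background, 0 lower of 17 is near that share. The splits also differ, since the pathway one uses starts of the site's own gene alone. Some pathway sites farther away lay near another gene's start, such as the lower WNT9A site at chr1:227946185-227947161, 815 bp from a start of LOC124904533. The median 24 h log2 change of the pathway sites was 0.38 near the start and -0.53 farther away, against 0.12 and -0.02 over all tested sites. For 72 h against 24 h, 15 of the 43 sites farther away were higher and 4 lower, and of the 17 near a start 0 were higher and 1 lower. Among all tested sites 12.8% were higher and 10.1% lower farther away, and 10.0% and 6.5% within 1 kb, so that 0 of 17 is near the background share.

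**Figure D5:**
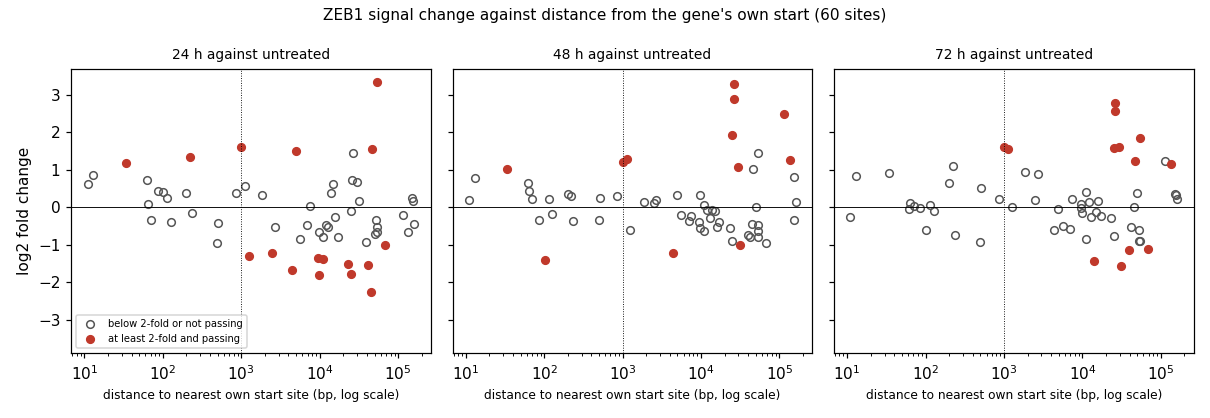
Log2 change against untreated cells (vertical axis) by distance in bp to the nearest listed start of the site's own gene (horizontal log axis) for the 60 tested sites whose gene has a listed start, 1 panel per exposure time. Filled points are called sites and the dotted line is 1 kb. To its left 0 of 17 points are called lower at 24 h, and to its right 11 of 43. Among all tested sites, split by any listed start, 7.2% and 15.5% were lower.

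Of the tested sites, 12 lay within 5 Mb of a chromosome end, 9 at WNT7B and 3 at AXIN1. At 24 h 6 of them were lower and 0 higher, and 7 of the 12 were higher at 72 h than at 24 h. Among all 5826 tested sites in that zone, 13.7% were lower and 13.1% higher at 24 h, while 25.4% were higher at 72 h than at 24 h. Away from chromosome ends, 11 of 80 pathway sites were lower and 8 higher at 24 h, and 16 were higher and 8 lower at 72 h than at 24 h. The part of this position in the WNT7B and AXIN1 time courses was not tested.

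A list of 59 other genes of the pathway gave 210 sites at 46 genes, of which 189 were tested. At 24 h 34 were lower and 18 higher (18.0% and 9.5%, beside 13.5% and 14.8% of all tested sites). At 48 h 10 were lower and 21 higher (5.3% and 11.1%), and at 72 h 13 were lower and 25 higher (6.9% and 13.2%), both close to the 7.55% and 10.5% and the 8.55% and 12.2% of all tested sites. For 72 h against 24 h 10 were lower and 32 higher (5.3% and 16.9%), beside 9.26% and 12.1% of all tested sites. BCL9L alone, with 13 of the 189 tested sites, held 10 of these 32 higher calls and 7 of the 34 lower calls at 24 h. The shares thus rest in part on 1 gene. GSK3A, a kinase of the destruction complex, had a start site with 253 and 248 CPM in untreated cells, 82.1 and 81.9 CPM at 24 h, 117 and 108 CPM at 48 h, and 173 and 183 CPM at 72 h. It was lower at 24 h (log2 change -1.61) and at 48 h (-1.16). SOST, a secreted inhibitor of LRP5 and LRP6 from bone, had 102 and 103 CPM in untreated cells, 28.7 and 30.7 CPM at 24 h, 55.6 and 71.7 CPM at 48 h, and 63.2 and 68.5 CPM at 72 h (log2 change -1.78 at 24 h).

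DVL1, which relays the Frizzled signal, had 38.8 and 43.9 CPM in untreated cells, 17.4 and 17.8 CPM at 24 h, 55.6 and 64.9 CPM at 48 h, and 77.9 and 79.6 CPM at 72 h at a site inside the gene. Its 72 h libraries exceeded the 24 h ones by 2.16 on the log2 scale, the 72 h change against untreated cells being 0.93. BCL9L, a beta-catenin co-activator, had 13 tested sites, 7 of them lower at 24 h and 10 higher at 72 h than at 24 h. Its strongest site had 165 and 180 CPM in untreated cells, 226 and 232 CPM at 24 h, 368 and 316 CPM at 48 h, and 600 and 583 CPM at 72 h, higher at 72 h by a log2 change of 1.78. PRICKLE2, a planar polarity gene, had 8.11 and 5.94 CPM in untreated cells, 67.7 and 52.3 CPM at 24 h, 34.8 and 33.2 CPM at 48 h, and 21.6 and 24.1 CPM at 72 h at a site 7458 bp past the gene, higher at all 3 times (log2 changes 3.07, 2.25 and 1.68). Of the R-spondin receptors, LGR6 had 9 tested sites, 3 lower and 1 higher at 24 h, 1 lower and 2 higher at 48 h, and 2 lower and 2 higher at 72 h. Of these, 1 site, with 28.4 and 29.0 CPM in untreated cells, 12.3 and 14.0 CPM at 24 h, 10.8 and 14.3 CPM at 48 h, and 16.4 and 11.1 CPM at 72 h, was lower at all 3 times.

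The start site of TLE1, a co-repressor of the TCF factors, had 37.7 and 32.3 CPM in untreated cells, 62.1 and 68.4 CPM at 24 h, 40.9 and 49.1 CPM at 48 h, and 30.3 and 27.8 CPM at 72 h, lower at 72 h than at 24 h by a log2 difference of -1.16. BCL9, PYGO2 and CTNNBIP1, which act on beta-catenin in the nucleus, and the polarity gene CELSR1 each had at least 1 lower site at 48 or 72 h. CTNNBIP1 also had 1 higher site at 48 h and 1 at 72 h, and BCL9, PYGO2 and CELSR1 had 0. The receptor ROR1 had 3 lower and 3 higher sites at 72 h, among them a higher one with a log2 change of 1.24. R-spondin genes RSPO1, RSPO2 and RSPO3, and the inhibitors DKK2, SFRP2, FRZB, SFRP4, SFRP5 and WIF1, had no site.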

How the data were processed

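ZEB1 CUT&RUN counts of 8 libraries were used. The deposited count table holds counts per consensus site as whole numbers without normalization. The unit counted, reads or fragments, is not given in the sources used here. The deposited peak lists, 1 per condition with names of replicate 1, give a fold enrichment (a ratio) and, per the file layout of the authors' peak caller, -log10 p values. The submitters' processing notes list, with no roles, hg38, deepTools, featureCounts, bedtools 2.30.0, MACS2 2.1.1, Picard, Bowtie2 2.2.6, cutadapt 2.4 and bcl2fastq 2.20.0.422.

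Counts (1130706 to 3561455 per library) were tested with edgeR 4.0.16 in R 4.3.3: TMM factors, filterByExpr by condition (46436 of 52981 sites kept), a robust quasi-likelihood fit over the 8 libraries with no term but condition, and 2-sided F tests adjusted by Benjamini-Hochberg over all tested sites. The common dispersion was 9.77e-05. The test was also run on counts simulated with sampling noise alone, which cannot check how it handles variation between cultures. Genes, gene ends and promoters came from RefSeq tables (GRCh38.p14), and a listed start is the start a promoter window implies. The background level was solved from the fold and p columns of the weaker peaks, as the most frequent local expectation of the peak caller. That most frequent value was held by 1543 of 12253 solved peaks in untreated cells and by 313 of 9489 at 72 h. At 24, 48 and 72 h the background level was 108.0, 100.8 and 95.2% of the untreated one.

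Per-library values were printed for the strongest tested site of the 12 members with the highest mean CPM, and for up to 8 called sites per comparison and direction with the largest change above the median abundance (up to 3 for the other pathway genes). Members, lists and rules were chosen with earlier results of these data known. DESeq2 1.42.0, other scalings, filters, site rules, an assumed coefficient of variation of 0.2 and leaving out each library were tried.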

Additional observations from a re-analysis of the deposited data

Results flagged for a closer look

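The 72 h and 24 h libraries differed past the threshold at 31 of the 92 pathway sites, by the edgeR test of 72 h against 24 h, in which the shared untreated libraries cancel. The p-values compare libraries, with n = 1 per condition, so a difference between exposure times was not tested. Each difference is the log2 change of 72 h over 24 h, with the start of the site. It was positive at 23 sites (25.0%, beside 12.1% of all tested sites). At LRP5 it was 1.88 (chr11:68302664), 1.81 (chr11:68447237), 1.44 (chr11:68314934), 1.06 (chr11:68316859) and 1.02 (chr11:68354182). At WNT7B it was 2.16 (chr22:45924644), 1.72 (chr22:45934612), 1.52 (chr22:45916688), 1.50 (chr22:45977686) and 1.37 (chr22:45976966). WNT9A gave 2.04 (chr1:227921760) and 1.31 (chr1:227946185), and WNT9B 1.68 (chr17:46876421), WNT3A 1.41 (chr1:228004416), WNT3 1.22 (chr17:46795369) and WNT11 1.10 (chr11:76208912). AXIN1 gave 1.33 (chr16:362077) and 1.01 (chr16:327243), DKK3 1.14 (chr11:11966877) and 1.05 (chr11:11979836), CTNNB1 2.27 (chr3:41244170), RNF43 1.09 (chr17:58352158) and FZD8 1.01 (chr10:35641045). This RNF43 site lay 109 bp past the gene and 189 bp from a listed start of SUPT4H1, and this FZD8 site lay 1122 bp from the FZD8 start. The difference was negative at 8 sites (8.7%, beside 9.26% of all tested sites). These were at ZNRF3 (-2.29, chr22:28883175), WNT2B (-1.80, chr1:112522745), TCF7L2 (-1.74 at chr10:112981583 and -1.01 at its start, chr10:112949964), DKK1 (-1.54, chr10:52319030), WNT2 (-1.51, chr7:117269529), FZD7 (-1.22, chr2:202033468) and DKK3 (-1.08, chr11:11998522).

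None of the 31 turned direction under any alternative, and many lost the call. It was lost at 16 sites on the background scale, 24 with the assumed coefficient of variation of 0.2, 14 with DESeq2, 7 with library totals and no TMM, and 1 to 10 with a library left out, the most without the first 24 h library. The LRP5 site at chr11:68316859 lost it in 6 settings, among them DESeq2 (adjusted p = 0.0783).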

How the results depend on the processing

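Counts of called pathway sites are given as lower and higher. On the background scale they were 55 and 1 (24 h), 74 and 4 (48 h), 69 and 2 (72 h), and 16 and 7 (72 h against 24 h). Of the 35 called changes given per library at pathway sites, 2 turned direction on that scale, FZD8 at chr10:35642107-35642417 (-0.41) and WNT7A (-0.33), both at 48 h, and 12 lost the call. The other 5 increases that turned there were at weaker sites (-0.35 to -0.12). With an assumed coefficient of variation of 0.2 between cultures, counts were 0 and 5 (48 h), 0 and 6 (72 h), and 2 and 5 (72 h against 24 h), and 18 of the 35 values lost the call. DESeq2 gave 3 lower sites at 48 h, 3 and 6 at 72 h, and 4 and 13 for 72 h against 24 h. With the adjusted p alone, counts were 36 and 13 (24 h), 22 lower (48 h), and 20 and 17 (72 h). Keeping the sites inside genes, which are fewer, left 11 and 4 at 24 h, 3 lower at 48 h and 3 lower for 72 h against 24 h. Apart from the last of these, the cause of the shifts was not tested. Leaving out 1 library at a time gave 16 to 20 lower and 7 to 10 higher at 24 h, 6 to 7 and 9 to 12 (48 h), 6 to 9 and 8 to 12 (72 h), and 5 to 8 and 17 to 25 for 72 h against 24 h, the 5 without the second 72 h library. Counts under the other scalings, without the filter and with a 5 kb flank stayed within 1.5 times the values reported.

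Libraries with the same replicate number did not deviate together (correlations of -0.004 to 0.015 over 43088 sites), so the numbers were not taken as pairs. With the replicate number as a block the counts were 17 and 8 (24 h), 6 and 10 (48 h), 7 and 10 (72 h), and 8 and 23 (72 h against 24 h). Low counts limit the weak sites, and library totals over all sites were lowest at 72 h. An FZD4 site with 5.81 CPM at 72 h had a 72 h interval of -1.04 to 0.93 around a log2 change of -0.01.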
